A study of Caenorhabditis elegans with 4 samples.

Results

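Transthyretin-related genes, named ttr, form a large family in the nematode Caenorhabditis elegans. The family consisted here of the 48 array probes whose annotation gave a single symbol made of ttr and a number, and these probes stood for 45 genes of the 14943 genes on the array. Wild-type adult worms were sampled in 4 preparations (preps 1 to 4). The RNA of each prep was hybridised on a two-colour array of its own together with RNA of a mixed reference, also wild type. The labels give no strain name, age in days, sex, diet or treatment, and do not say which stages or sexes were mixed in the reference. Every value below is a log2 ratio, likely of adult RNA (channel 2) over reference RNA (channel 1), so that a positive value likely means higher in adults and a negative value lower. The numerator is not stated in the sources used here, and if it is the reference, every sign below turns round. Adult RNA stayed in the same channel throughout, so for a single gene the effects of channel and of sample cannot be told apart.

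Transthyretin is the vertebrate blood protein that carries thyroid hormone and, with its partner, retinol. The ttr genes of nematodes are named for a distant resemblance to it, and most are predicted to encode small secreted proteins. Few have a known function. The best studied, ttr-52, encodes a secreted protein that binds phosphatidylserine on dying cells and links it to the engulfment receptor CED-1. The same protein takes part in the fusion of severed axons. Protein and promoter sequences of the family were not used here.

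More members of the family were lower than higher in adults relative to the reference. The median of the 45 mean ratios was -0.53 (SD of the 4 array medians 0.109), against 0.064 over all 14935 genes tested. At an adjusted p under 0.05 in limma, a linear model fitted across all genes, 23 members were called negative, 3 were called positive and 19 were not called. Of all genes tested, 21.2% were called negative, 23.2% positive and 44.5% in either direction. The members were chosen by their symbols, but the family was put forward with its log2 ratios on these 4 arrays known, so these counts describe it and test nothing. All 45 members had a value on each of the 4 arrays. Of the 45 means, 9 were at most -1 and called, as were 8.05% of all genes tested. A further 14 lay between -1 and -0.5, 19 lay within 0.5 of 0, 2 lay between 0.5 and 1, and 1 was above 1. The sign was negative on all 4 arrays for 27 members and positive on all 4 for 5, and 13 had both signs. The share of all genes with 1 sign on every array was not counted, so these sign counts stand without a background. In whole worms, fewer cells of a type and less RNA per cell cannot be told apart, nor can these be told from a reference that is rich in the RNA.

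**Figure D1:**
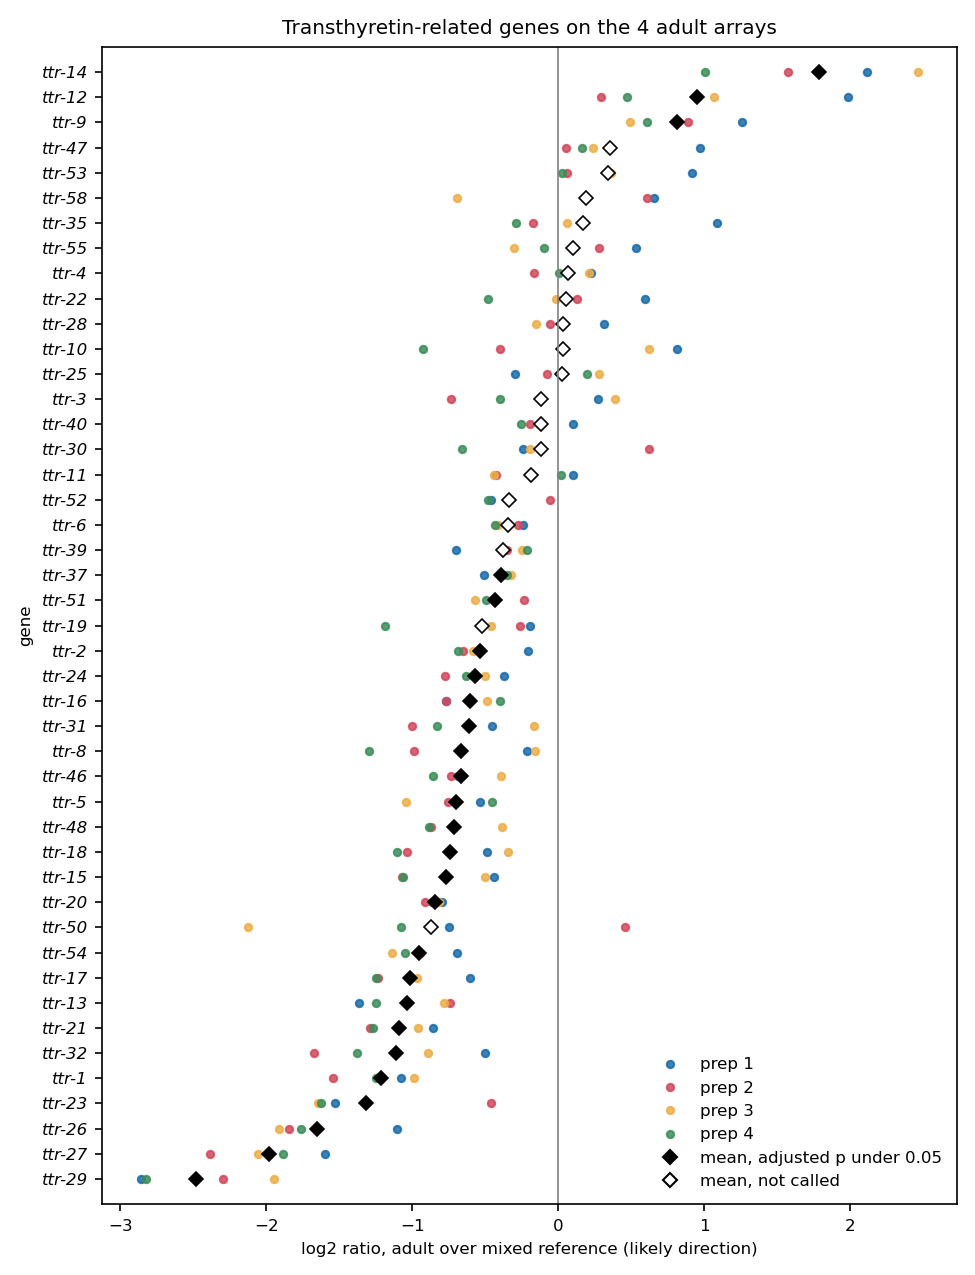
Log2 ratio of adult over mixed reference RNA (horizontal) for each of the 45 transthyretin-related genes (vertical, ordered by mean). Coloured points are the 4 preps and diamonds the means, filled where limma's adjusted p was under 0.05. Means ran from -2.48 for ttr-29 to 1.79 for ttr-14.

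**Figure D2:**
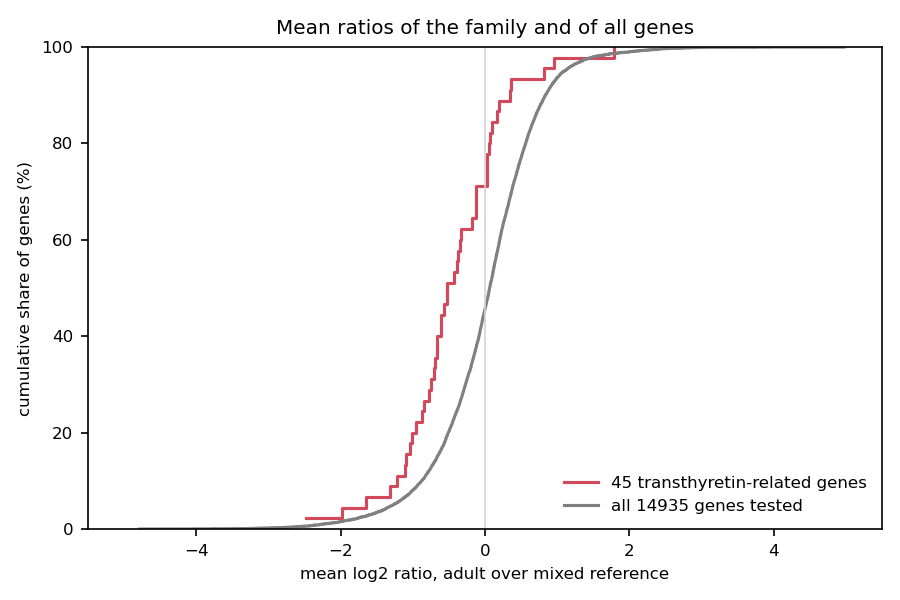
Cumulative share of genes (vertical, percent) by mean log2 ratio over the arrays (horizontal) for the 45 transthyretin-related genes and for all 14935 genes tested. The family's curve lies left of the other over most of the range, with medians of -0.53 and 0.064.

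The lowest member was ttr-29 (locus R90.4, chromosome V). Its log2 ratios on preps 1 to 4 were -2.86, -2.30, -1.95 and -2.83. All were strongly negative, and the mean of -2.48 ± 0.44 (SD, n = 4) is a 5.59-fold lower level in adults. Next came ttr-27 (R90.2), which lies on chromosome V near ttr-29, with -1.60, -2.39, -2.06 and -1.88. Its mean was -1.98 ± 0.33 (SD, n = 4), or 3.95-fold lower, and its range overlapped that of ttr-29. The third was ttr-26 (Y51A2D.11, chromosome V), with -1.10, -1.85, -1.91 and -1.76 and a mean of -1.66 ± 0.37 (SD, n = 4). Prep 1 was the highest of the 4 for ttr-26. Of all genes tested, 0.596% had a lower mean than ttr-29, 1.59% a lower mean than ttr-27 and 2.66% a lower mean than ttr-26.

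A further 6 members had means of at most -1. For ttr-23 (T21C9.8, chromosome V) the ratios were -1.53, -0.46, -1.65 and -1.63, with a mean of -1.32 ± 0.57 (SD, n = 4). Prep 2 was far above the other 3 preps there, and those 3 lay within a narrow band. The gene ttr-1 (K03H1.6, chromosome III) had -1.08, -1.54, -0.99 and -1.25. By contrast, ttr-32 (R13A5.3, chromosome III) was spread more widely, with -0.50, -1.67, -0.89 and -1.38. The means of ttr-1 and ttr-32 were -1.22 ± 0.24 and -1.11 ± 0.52 (SD, n = 4 each), so their ranges overlapped. On chromosome V, ttr-21 (F09F3.6) had -0.86, -1.29, -0.96 and -1.27, and its mean was -1.09 ± 0.22 (SD, n = 4). Also on V, ttr-13 (Y44A6B.4) had -1.36, -0.74, -0.79 and -1.25, with a mean of -1.03 ± 0.32 (SD, n = 4). The last of the 6 was ttr-17 (Y5F2A.2, chromosome IV) at -1.01 ± 0.30 (SD, n = 4). From ttr-1 to ttr-17 the ranges of all neighbours in this order overlapped.

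The remaining 14 negative calls were smaller, with means from -0.96 for ttr-54 to -0.39 for ttr-37. The tightest was ttr-20 (F36A4.8, chromosome IV), at -0.79, -0.91, -0.82 and -0.86, with an SD of 0.053, the smallest of the 45 members. The means of ttr-15, ttr-18, ttr-48 and ttr-5 were -0.77, -0.74, -0.71 and -0.70. Those of ttr-46, ttr-8, ttr-31 and ttr-16 were -0.67, -0.66, -0.61 and -0.60. The means of ttr-24, ttr-2 and ttr-51 were -0.57, -0.53 and -0.43. All 23 members called negative were negative on all 4 arrays. At the edge of the threshold, ttr-8 (limma adjusted p = 0.0356) and ttr-37 (adjusted p = 0.0411) stood just inside, and ttr-19 (adjusted p = 0.0523) and ttr-39 (adjusted p = 0.0662) just outside. The ratios of ttr-8 were -0.21, -0.99, -0.16 and -1.29, so that preps 1 and 3 were near 0 and preps 2 and 4 were not. For ttr-19 they were -0.19, -0.26, -0.46 and -1.19, with prep 4 the lowest. For ttr-39 they were -0.70, -0.35, -0.25 and -0.21, with prep 1 the lowest.

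The highest member was ttr-14 (T05A10.3), on the X chromosome. Its ratios were 2.11, 1.57, 2.47 and 1.00 on preps 1 to 4, with a mean of 1.79 ± 0.64 (SD, n = 4), or 3.46-fold higher in adults. This gene has 2 probes, with means of 1.78 and 1.79, which differed by 0.011. No other member's mean was above 1, and its lowest array was above the highest array of every member but ttr-9, ttr-12 and ttr-35. On chromosome V, ttr-12 (F46B3.4) had 1.98, 0.29, 1.07 and 0.47, with a mean of 0.95 ± 0.76 (SD, n = 4). Its preps ranged widely. The mean was 0.61 without prep 1, and the call was lost without prep 3 (limma adjusted p = 0.074). The third positive call, ttr-9 (C33A12.15, chromosome IV), had 1.26, 0.89, 0.49 and 0.61, with a mean of 0.81 ± 0.34 (SD, n = 4). On preps 1 and 3 ttr-12 was above ttr-9, and on preps 2 and 4 it was below, so their order is not settled.

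Sperm and oocyte genes also varied between the preps. The median of 30 major sperm protein genes was 2.77, 2.29, 3.00 and 2.00 on preps 1 to 4, and that of 6 oocyte genes was 0.71, 1.33, 0.62 and 1.67. The order of the preps for ttr-14, with prep 3 highest and prep 4 lowest, was also that of the sperm medians. That order was not particular to ttr-14, as ttr-8, ttr-18, ttr-46 and ttr-48, all called negative, had it too. The part of sperm or oocyte RNA in the ratio of ttr-14 was not tested.

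Members with means near 0 differed in how far their preps agreed. The positive values of ttr-47 (H14N18.3) were 0.97, 0.05, 0.24 and 0.16, and those of ttr-53 (T14G10.3) were 0.92, 0.06, 0.36 and 0.03. In both, prep 1 was well above the others. The same held for ttr-35 (F22A3.2), which had 1.09, -0.17, 0.06 and -0.29. On chromosome I, ttr-55 (F56F4.2) had 0.53, 0.28, -0.30 and -0.10, while ttr-58 (F56F4.1) had 0.66, 0.61, -0.69 and 0.19. Both were higher on preps 1 and 2 than on preps 3 and 4, which share the date in their array titles. The means of these 5 members were 0.36, 0.34, 0.17, 0.10 and 0.19 in the order given, and none was called. The gene ttr-11 (F46B3.3) had 0.10, -0.42, -0.44 and 0.02. The locus ttr-4, which RefSeq now lists as a pseudogene, had a mean of 0.067 ± 0.19 (SD, n = 4). For the others that were not called, the means were 0.056 for ttr-22, -0.12 for both ttr-30 and ttr-40, and -0.34 for ttr-6.

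The widest spread over the arrays was that of ttr-50 (F58B3.9, chromosome IV), at -0.75, 0.46, -2.13 and -1.08. Its SD was 1.06, against a median SD of 0.330 over the family and 0.308 over all genes tested. The mean of -0.87 was the lowest of the members not called. Without prep 2, the only positive array, ttr-50 had a mean of -1.32 and was called (limma adjusted p = 0.00688). Without prep 3, the lowest array, its mean was -0.46 and it was not called (limma adjusted p = 0.269). Next in spread was ttr-10 (F19F10.4, chromosome V), at 0.82, -0.40, 0.62 and -0.92, with an SD of 0.83. Its 2 probes gave 0.76, -0.19, 1.35 and -1.20, and 0.88, -0.60, -0.11 and -0.65. They shared the sign on preps 1, 2 and 4 and had opposite signs on prep 3.

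The other member with 2 probes, ttr-37 (F21E9.3, X chromosome), had the largest gap between them. The first probe had -0.56, -0.24, 0.19 and 0.16, with a mean of -0.11, and the second had -0.46, -0.53, -0.83 and -0.87, with a mean of -0.67. The probes moved apart on preps 3 and 4. Their average was -0.39 ± 0.083 (SD, n = 4), an SD below that of either probe. The call of ttr-37 was lost when the first probe alone stood for the gene (limma adjusted p = 0.616), and also without any 1 of the preps.

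The level of the family also differed between the preps. The family median was -0.43, -0.42, -0.39 and -0.63 on preps 1 to 4, while the medians of all genes tested were 0.074, 0.085, 0.001 and 0.024. A negative ratio was seen for 30 members (66.7%) on prep 1 and for 35 (77.8%) on each of preps 2, 3 and 4. Of all genes tested, 45.6%, 45.4%, 49.8% and 48.5% were negative on preps 1 to 4. Over the 45 members, the correlation between 2 arrays ran from 0.665 for preps 2 and 3 to 0.845 for preps 1 and 4. All 4 arrays share the reference RNA, so these correlations are a description. Prep 1 was the highest array for 25 of 45 members (55.6%), against 26.5% of all genes with 4 values. Prep 4 was the highest for 3 members (6.67%), against 29.9% of all genes. Prep 1 was above prep 4 for 38 members and above prep 2 for 34, with median differences of 0.357 and 0.37, against 0.012 and -0.014 over all genes. For prep 1 against preps 2 and 4, the oocyte genes given above ran the other way and the sperm genes the same way. Against prep 3 this was reversed. There, 29 members were higher on prep 1, with a median difference of 0.143 against 0.026 over all genes. The oocyte median was also higher on prep 1 than on prep 3 (0.71 and 0.62), and the sperm median was lower (2.77 and 3.00). Medians on preps 1 and 3 were lower than on preps 2 and 4 for the oocyte genes, and higher for the sperm genes. The part of either list in the spread of the ttr ratios was not tested.

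**Figure D3:**
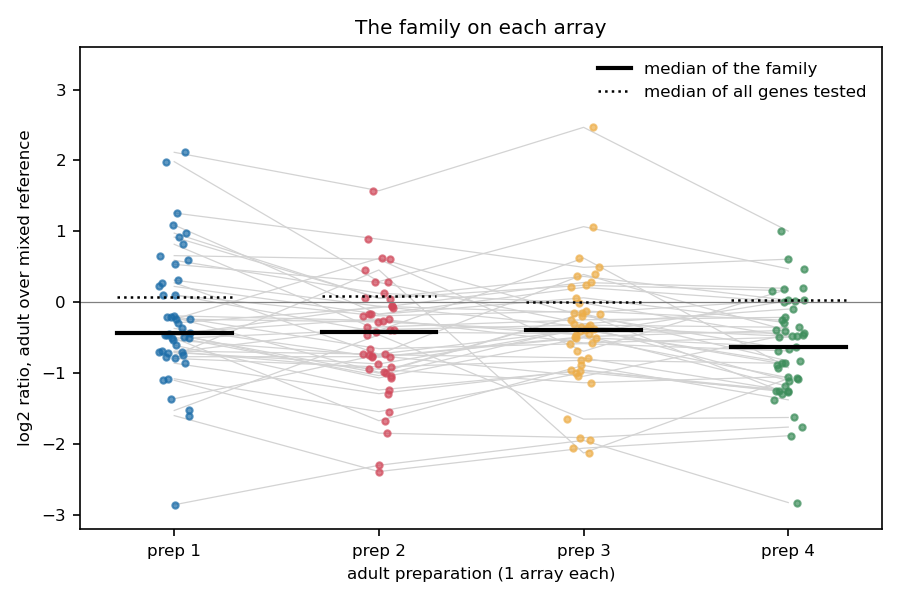
Log2 ratios of adult over mixed reference RNA (vertical) of the 45 transthyretin-related genes on each prep (horizontal). Points are genes, grey lines join a gene across preps, solid bars are family medians (-0.43, -0.42, -0.39 and -0.63) and dotted bars the medians of all genes tested.

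The ttr genes lie on all 6 chromosomes and often next to one another. RefSeq lists 59 ttr symbols, of which 28 lie in 12 runs of adjacent ttr genes, 4 runs of 3 and 8 of 2, counting protein-coding genes and pseudogenes. The 45 measured members comprised 17 on chromosome V, 9 each on III and IV, 7 on X, 2 on I and 1 on II. Negative calls were made for 6 of 9 on III, 5 of 9 on IV, 8 of 17 on V, 3 of 7 on X, 1 of 1 on II and 0 of 2 on I. Of all genes tested on these chromosomes, the shares called negative were 17.4% on III, 19.6% on IV, 21.1% on V, 31.3% on X, 20.0% on II and 17.6% on I. By an unadjusted p, neither ttr-55 nor ttr-58 on chromosome I was under 0.05. The highest member of the family, ttr-14, lay on X, where 9.44% of all genes were called positive.

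Neighbours in a run did not have alike ratios in every case. There were 9 adjacent pairs with both genes measured, and in 4 of them the means differed by more than 1. The widest gap was within the run of ttr-27, ttr-28 and ttr-29 on chromosome V. Its middle gene, ttr-28 (R90.3), had 0.31, -0.06, -0.15 and 0.03, with a mean of 0.034 ± 0.20 (SD, n = 4). It was above ttr-29 on 4 of 4 arrays, with a mean difference of 2.52 ± 0.61, and above ttr-27 on 4 of 4 arrays, where the difference of ttr-27 minus ttr-28 was -2.02 ± 0.21 (SD, n = 4 each). Both outer genes were thus low while the inner one was near 0.

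A second run on chromosome V had the same shape. The outer gene ttr-24 (Y51A2D.9) had -0.37, -0.78, -0.50 and -0.63, and the middle gene ttr-25 (Y51A2D.10) had -0.29, -0.08, 0.28 and 0.20. The other outer gene is ttr-26, given above. On every array ttr-25 was higher than both, by a mean of 1.68 ± 0.61 over ttr-26, while ttr-24 minus ttr-25 was -0.60 ± 0.35 (SD, n = 4 each). The call of ttr-24 was lost without prep 2 (limma adjusted p = 0.0595).

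On chromosome III, the run of ttr-3, ttr-2 and ttr-1 had a lower mean at each step. The first, ttr-3 (K03H1.3), had 0.27, -0.73, 0.39 and -0.40, and the second, ttr-2 (K03H1.4), had -0.20, -0.66, -0.58 and -0.69. Between ttr-2 and ttr-1 the difference was 0.68 ± 0.24 and had 1 sign on all 4 arrays, whereas ttr-3 was above ttr-2 on 3 of 4 arrays by 0.42 ± 0.44 (SD, n = 4 each). The call of ttr-2 was lost without prep 2, 3 or 4 (limma adjusted p = 0.0744, 0.0606 and 0.0663). On chromosome IV, ttr-54 (T14G10.4) lay below its neighbour ttr-53 on every array, with -0.70, -0.95, -1.14 and -1.05. Their difference was -1.30 ± 0.30 (SD, n = 4).

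Other pairs lay closer together. On chromosome IV, ttr-16 (Y5F2A.1) had -0.77, -0.77, -0.49 and -0.40, and its neighbour ttr-17 had -0.61, -1.24, -0.97 and -1.25. Prep 1 was the only array on which ttr-17 was the higher. The means of ttr-16 and ttr-17 differed by 0.41 ± 0.42, and ttr-8 and ttr-32 on III by 0.45 ± 0.31 (SD, n = 4 each). Both genes of each of these pairs were called negative. The median absolute difference between adjacent members was 0.684 over 9 pairs, against 0.647 over all 990 pairs of members. Probes may bind near-identical members, which would draw such values together, and this was not tested.

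**Figure D4:**
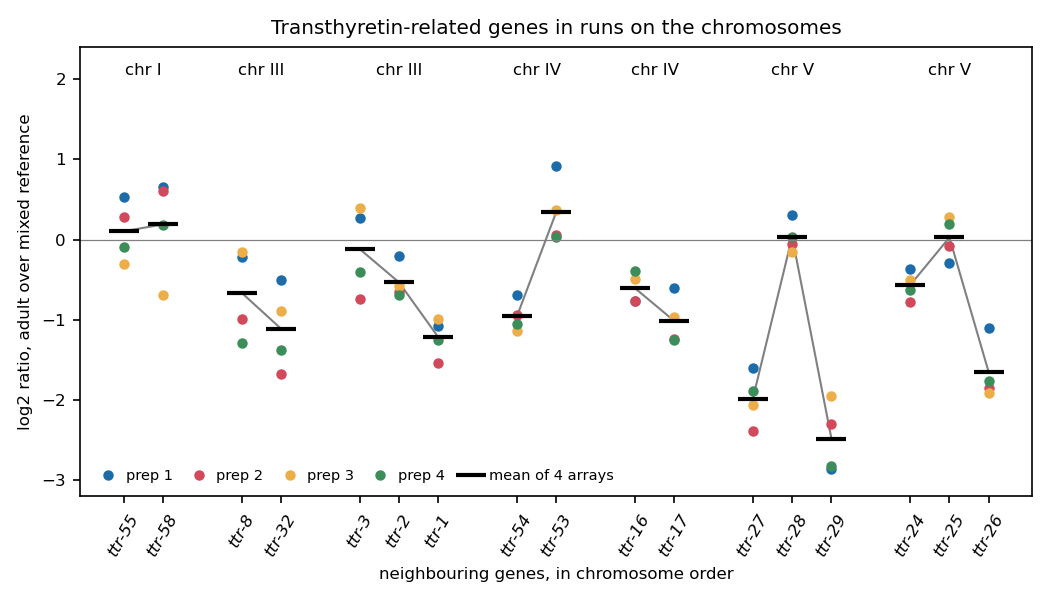
Log2 ratios of adult over mixed reference RNA (vertical) of measured ttr genes that share a run, in chromosome order (horizontal), with 4 preps as points and means as bars. In the runs of ttr-27 to ttr-29 and ttr-24 to ttr-26 the middle gene has means of 0.034 and 0.026 between negative neighbours, and ttr-56, which lies between ttr-55 and ttr-58, is not shown.

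The member with the best known role, ttr-52 (F11F1.7, chromosome III), had -0.46, -0.06, -0.35 and -0.48. It was negative on all 4 arrays and nearest to 0 on prep 2. The mean was -0.34 ± 0.20 (SD, n = 4), and it was not called (limma adjusted p = 0.0867). The protein works with others in the removal of dying cells and in axon fusion, and 15 of 19 genes listed for these processes were tested. The genes ced-2, ced-10, egl-1 and mtm-1 were not among the genes tested. Of the 15, 3 were called positive and 3 negative, with a median of -0.054. That is 20% in each direction, close to the 23.2% and 21.2% over all genes tested.

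The lowest of these was eff-1, the fusogen that joins cell membranes, at -1.10, -0.96, -0.77 and -1.02, with a mean of -0.96 ± 0.14 (SD, n = 4, limma adjusted p = 0.00101). The highest was psr-1, which encodes a phosphatidylserine receptor, at 1.09, 0.42, 0.83 and 1.06. Its mean was 0.85 ± 0.31 (SD, n = 4, limma adjusted p = 0.00362). The integrin subunit gene pat-2 had -0.67, -0.44, -0.91 and -0.85, with a mean of -0.72 ± 0.21 (SD, n = 4, limma adjusted p = 0.00509). These 3 genes had 1 sign on every array.

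The cell death genes ced-3, a caspase, and ced-4, its activator, had means of -0.65 ± 0.42 and 0.52 ± 0.34 (SD, n = 4 each), and were called (limma adjusted p = 0.0202 and 0.0344). The engulfment gene ced-5 had 0.51 ± 0.35 (SD, n = 4, limma adjusted p = 0.0396). The call of ced-3 was lost without prep 2, and the calls of ced-4 and ced-5 were lost without prep 2, 3 or 4. With the date in the array titles, which preps 3 and 4 share, as a block, ced-4 and ced-5 also lost their calls (limma adjusted p = 0.059 and 0.0687), as did ced-5 with each array centred on its median (limma adjusted p = 0.0508). The receptor gene ced-1, to whose protein TTR-52 binds, had -0.80, -0.12, -0.30 and 0.60 and was not called (limma adjusted p = 0.595). It had both signs, and prep 4 was the highest. The secreted lipid-binding gene nrf-5 had a mean of -0.38 ± 0.26 and the transporter gene ced-7 had -0.054 ± 0.48 (SD, n = 4 each), and neither was called (limma adjusted p = 0.073 and 0.837).

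**Figure D5:**
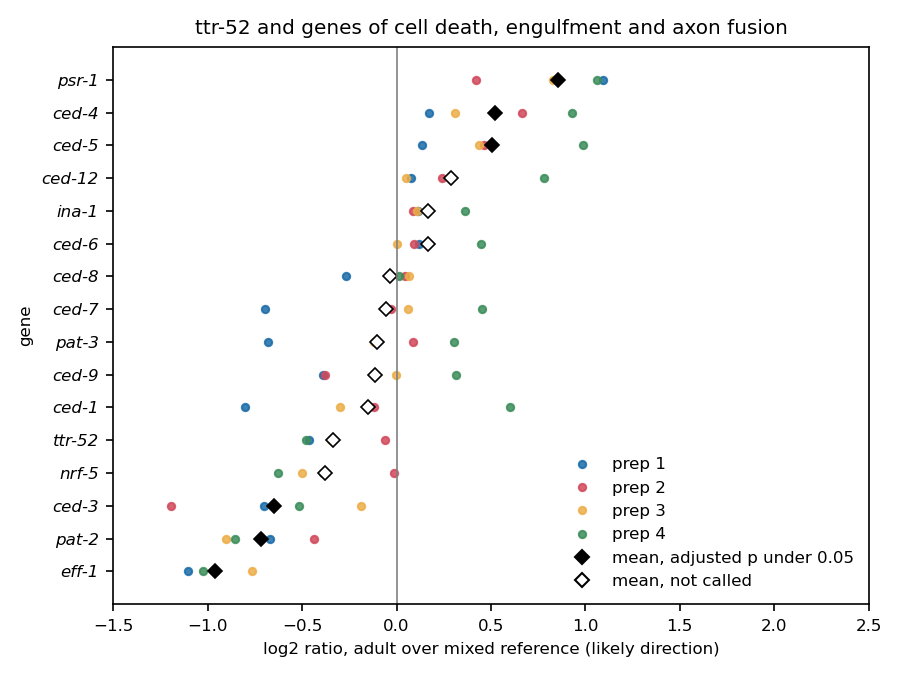
Log2 ratios of adult over mixed reference RNA (horizontal) of ttr-52 and the 15 tested genes of cell death, engulfment and axon fusion (vertical, ordered by mean). Points are the 4 preps and diamonds the means, filled where limma's adjusted p was under 0.05, with means from -0.96 for eff-1 to 0.85 for psr-1.

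Across the whole series, between 21243 and 21501 of 21632 probes had a value on each array, and the arrays correlated over the probes at 0.659 to 0.755. The larval moulting genes had a median of -1.29, with 3 of 6 called negative and none positive. All 6 oocyte genes and 29 of 30 sperm genes were called positive. The 3 measured yolk genes, vit-2, vit-5 and vit-6, were not called, and their median ran from -0.56 on prep 2 to 1.49 on prep 4. Of the 7 male neuron genes, 1 was called negative and none positive. Of the 5 embryonic genes, 2 were called negative and none positive.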

How the data were processed

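Per the labels, adult RNA was in channel 2 and the mixed reference RNA in channel 1. The values the authors deposited are log2 ratios of the 2 channels, 1 for each spot. This unit rests on the values themselves: 2 raised to them gave numbers of 3 decimals (within 0.00001) for 99.934% to 99.995% of spots. The authors' scanning, filtering and normalization are not stated in the labels or in the table. Array medians ranged from -0.0043 to 0.0496. The platform annotation gave 1 symbol for 16450 probes, updated through RefSeq (WBcel235), which changed no ttr symbol. RefSeq lists 14 further ttr symbols that had no such probe. Chromosomes and gene order come from that table, and coordinates are left out because the arrays' build is not stated.

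Probes were averaged per gene and array. In limma 3.58.1 (R 4.3.3), an intercept was fitted to every gene measured on 3 or more arrays and tested against 0, two-sided, with eBayes. The p-values of all 14935 genes were adjusted by the Benjamini-Hochberg method, and genes under 0.05 were called. The fit was tested on simulated data. The test leaves out the reference's own spread, and p-values measure only the spread between preparations, which may be technical. The precision is limited by the 4 arrays. Members and lists were chosen with earlier results of these data known. Array values are given for the 8 highest and 8 lowest members, those of known role, wide spread, several probes or adjacent position, and those at the threshold, and ttr-20 was added after its values were seen. A planned choice by protein identity was not made, because no protein sequences were used here.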

Additional observations from a re-analysis of the deposited data

Results flagged for a closer look

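The 45 members, the family median and 15 genes of cell death, engulfment and axon fusion were searched for 1 prep that stood apart from the rest. This gave 4 of 61 sets, against 3.05 that chance gives at 1 in 20. The sets share the same 4 arrays, and the family median comes from the same 45 members. They are thus not independent, and 3.05 is only a rough guide. For ttr-23, prep 2 had -0.46 and the other preps -1.65 to -1.53. The family median was -0.63 on prep 4 and -0.43 to -0.39 on the other preps. For ced-8, prep 1 had -0.27 and the other preps 0.01 to 0.07. For ina-1, prep 4 had 0.36 and the other preps 0.09 to 0.11.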

How the results depend on the processing

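The count of 23 negative calls stayed between 20 and 24 with the arrays centred or also scaled, with other minimum numbers of arrays, a robust prior, array weights, the title date as a block, 1 probe per gene, every probe of a gene called, or the annotation's own symbols. Over these settings 19.4% to 21.9% of all genes tested were called negative, against 21.2% in the main fit. Leaving out 1 prep at a time gave 18 to 22 negative and 2 to 3 positive calls. Calls over all genes fell as well, to 16.7% to 18.6% negative, and from 3468 positive genes to between 2523 and 3049. A minimum size of 1 on the log2 scale, which takes a subset by construction, left 9 negative and 1 positive. Over all genes tested it left 8.05% negative and 929 genes positive. The family median of -0.525 ran from -0.55 to -0.434 without 1 prep and stayed below 0 in every setting. With the title date as a block, ttr-8, ttr-37 and ttr-51 lost their calls (limma adjusted p = 0.0627, 0.0578 and 0.0538); preps 3 and 4 share that date, and limma's own estimate could not be fitted with 3 dates for 4 arrays, so the correlation of 0.271 was taken from the squared differences between arrays. The call of ttr-51 was also lost without any 1 of the preps, that of ttr-8 and of ttr-31 without prep 2 or 4, and ttr-19 was called with centred arrays (adjusted p = 0.0421), centred and scaled arrays (0.0376), a robust prior (0.0495) or without prep 1 (0.0394), but not with the title date as a block (0.0919) or without prep 4, where its mean of -0.525 became -0.304 (0.175). No paired analysis was possible because all 4 arrays form 1 group. Signal over background could not be judged, as the table holds ratios and no intensities.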
